A study of Mus musculus with 48 samples.

Results

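The Fox and Sox transcription factor families were described across 48 single mouse cells. Members were the rows whose symbol follows the Fox or the Sox naming pattern, without Foxh1, Foxf1a, Foxc1, Foxc2 and Sox2, which left 58 of 23284 gene symbols, 40 Fox and 18 Sox. The cells came from embryonic stem cells of strain 129P2/OlaHsd that carry a doxycycline-inducible Mesp1, a transcription factor of nascent mesoderm, and that formed embryoid bodies, floating clusters in which the cells differentiate. Doxycycline at 500 ng/ml was present between days 2.25 and 3.25, and day 4 cells that excluded propidium iodide were isolated one by one with a Fluidigm C1 device. All 48 cells carry the same label, Mesp1-induced mesoderm, with no uninduced cells beside them and no separate culture named, so they stand as 1 sample, are described without tests, and their spread is that between cells.

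Fox proteins bind DNA through a winged-helix forkhead domain and Sox proteins through an HMG box related to that of the sex-determining factor SRY. Several members are pioneer factors that can bind closed chromatin, and both families are named by letter subgroups whose genes often overlap in function. In the gastrulating mouse embryo Foxa2 is known from the node, notochord and definitive endoderm, Sox17 from endoderm, Sox7, Sox17 and Sox18 from endothelium, Sox1 and Sox3 from the neural plate, and Sox9 from neural crest, cartilage and several epithelia. Foxm1 drives genes of mitosis in dividing cells, and the FoxO factors are held in the cytoplasm by phosphorylation through Akt.

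Values are FPKM (fragment counts corrected for transcript length and library size), and a gene counted as detected in a cell at 1 FPKM or more. A median of 6212 genes was detected per cell, between 4788 and 7010, and the number was lower in cells with a higher number in their label (median 6506 genes in the 25 cells numbered up to 48 and 5711 in the 23 cells above). Mesp1 itself was detected in 30 cells (62.5%, exact Clopper-Pearson 95% interval 47.4% to 76.05%), with a median of 7.66 FPKM, and was listed at 0 in 15. These values do not tell the inducible copy from the native gene. They were read after doxycycline had ended, so they do not show which cells had been induced. Mesoderm genes were found at similar breadth, with Eomes in 35 cells, Pdgfra in 31, T in 26 and Kdr in 22, while markers of other types were also present, with E-cadherin (Cdh1) in 18 cells and Sox2 in 18. Sequencing depth is unknown, so each interval covers counting error alone and a value of 0 is given as listed.

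The upstream regions of 4 members that set the range of patterns are shown first, as windows of 300 bases around the start of transcription given by RefSeq (GRCm38.p6). That start can differ from the one in GENCODE, from which the gene spans here are taken: the Foxr1 window lies inside its GENCODE span, and those of Sox11 and Sox15 lie wholly before theirs. Sox11 was detected in every cell, Foxa2 and Sox15 in small groups of cells, and Foxr1 in many cells at a low level. Capitals mark matches to any of 4 motifs, on either strand: a forkhead core (GTAAACA), a Sox core (ACAAAG), the CCAAT box (CCAAT) and the octamer (ATGCAAAT).
Sox11, chr12:27342669-27342968, minus strand: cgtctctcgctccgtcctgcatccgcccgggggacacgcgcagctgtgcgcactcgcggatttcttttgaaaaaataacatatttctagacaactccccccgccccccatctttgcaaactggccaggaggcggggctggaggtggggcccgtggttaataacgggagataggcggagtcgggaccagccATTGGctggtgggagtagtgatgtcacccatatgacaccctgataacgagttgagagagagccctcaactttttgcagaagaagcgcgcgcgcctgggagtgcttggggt
Foxa2, chr2:148046920-148047219, minus strand: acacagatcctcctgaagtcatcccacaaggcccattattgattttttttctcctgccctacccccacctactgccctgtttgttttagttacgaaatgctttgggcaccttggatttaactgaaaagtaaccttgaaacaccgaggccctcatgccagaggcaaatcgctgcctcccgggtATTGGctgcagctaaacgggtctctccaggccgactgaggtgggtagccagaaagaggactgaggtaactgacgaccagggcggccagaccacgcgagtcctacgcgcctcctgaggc
Sox15, chr11:69654787-69655086, plus strand: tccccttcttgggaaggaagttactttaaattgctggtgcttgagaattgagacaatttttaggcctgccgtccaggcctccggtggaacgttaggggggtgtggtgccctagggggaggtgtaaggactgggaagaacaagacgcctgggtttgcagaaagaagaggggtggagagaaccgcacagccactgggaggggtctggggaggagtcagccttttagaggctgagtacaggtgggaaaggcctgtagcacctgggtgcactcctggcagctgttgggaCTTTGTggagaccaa
Foxr1, chr9:44440819-44441118, minus strand: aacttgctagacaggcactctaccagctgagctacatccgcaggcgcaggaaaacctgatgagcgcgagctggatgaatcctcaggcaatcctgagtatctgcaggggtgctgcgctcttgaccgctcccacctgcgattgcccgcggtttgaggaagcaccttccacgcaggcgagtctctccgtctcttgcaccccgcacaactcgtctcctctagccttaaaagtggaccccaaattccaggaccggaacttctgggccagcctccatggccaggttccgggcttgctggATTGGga
Each window held 1 match, a CCAAT box in Sox11, Foxa2 and Foxr1 and a Sox core in Sox15, so no matches overlapped. Over all 32851 promoters of the table, 37.4% held CCAAT, 18.7% the Sox core, 3.65% the forkhead core and 1.74% the octamer. Of 49 windows found for 39 members, 46.9%, 28.6%, 4.08% and 4.08% held them. The other 19 members had no entry. Foxa2 has 3 starts in the table, and the one farthest upstream is shown. The Sox15 window held 5 CpG dinucleotides, against 21 in Sox11, 16 in Foxr1 and 12 in Foxa2. The median was 16 over the members' windows and 7 over all promoters. A match is a description of letters and not of binding.

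Of the 58 members, 14 were detected in at least 12 cells (24.1%), against 35.8% of all symbols. A further 6 were detected in 5 to 11 cells and 19 in 1 to 4 cells. The last 19 (32.8%) were detected in no cell, as were 39.7% of all symbols. Detection in 5 or more cells thus covered 20 members (34.5%), beside 45.5% of all symbols. Since members were less frequent than all symbols both there and in no cell, they were more frequent among genes in 1 to 4 cells. Among the Sox genes 4 of 18 reached 12 cells and among the Fox genes 10 of 40. Each cell held a median of 10 members, 7 Fox and 4 Sox by their own medians, with a range from 3 to 15, and cells with more detected genes held more members (rho = 0.42 by Spearman and r = 0.46 by Pearson, 48 cells).

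**Figure D1:**
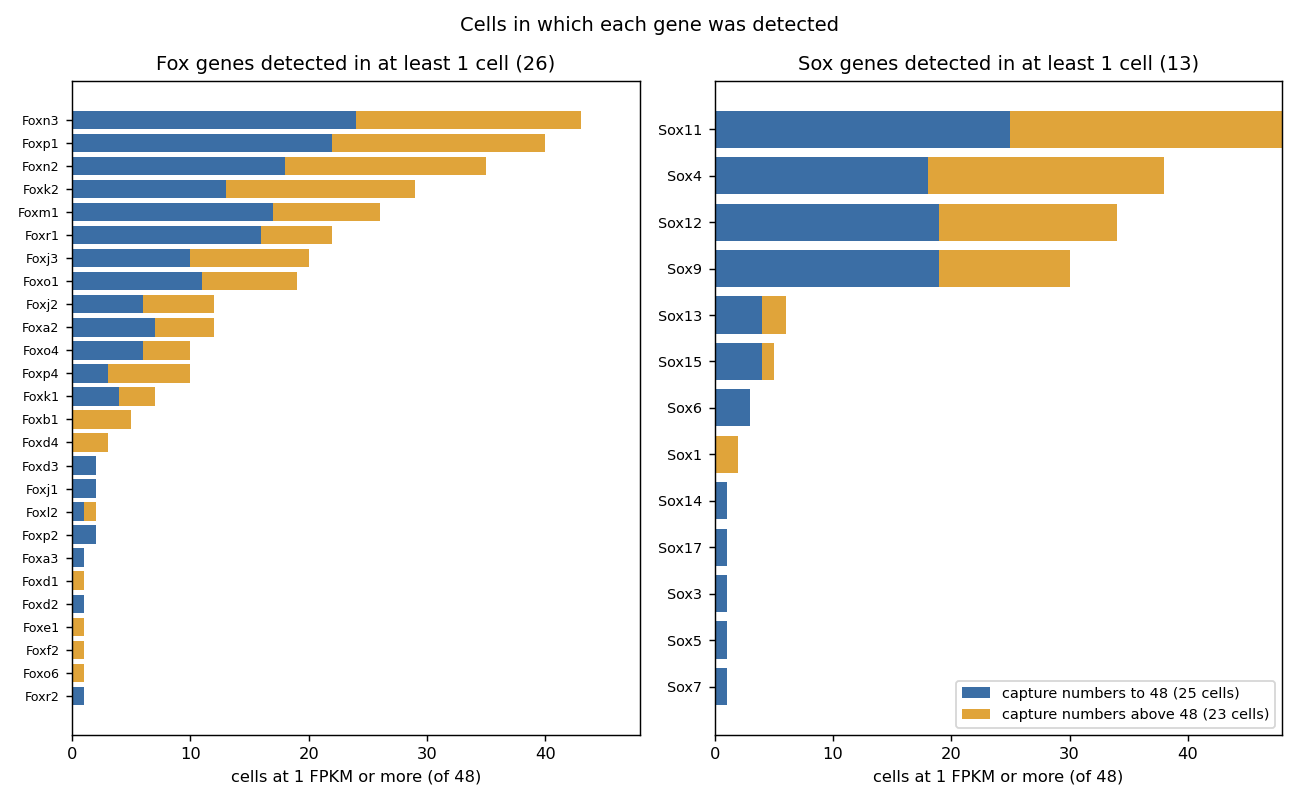
Number of cells, of 48, in which each Fox gene (left) and each Sox gene (right) reached 1 FPKM, for the 26 Fox and 13 Sox genes detected in at least 1 cell, split by the number in the cell's label (up to 48, 25 cells; above 48, 23 cells). Sox11 was detected in all 48 cells, Foxn3 in 43 and Foxp1 in 40, while 16 Fox and 9 Sox genes shown were detected in fewer than 12 cells.

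The SoxC genes, which support survival and differentiation of progenitor cells in many tissues, were the most widely detected subgroup. Sox11 (GRCm38 chr12:27334264-27342574, minus strand) had a lowest value of 5.29, a median of 54.5 and a highest of 98.7 FPKM, and 47 of 48 cells were at 10 FPKM or more. Its level was even between cells, with a coefficient of variation (SD divided by the mean) of 0.464, where 1650 genes with a mean within 2-fold of its own had a median of 0.827. Sox4 was detected in 38 cells, between 0 and 47.4 FPKM around a median of 6.004 FPKM. Sox12 reached the threshold in 34 cells, its median being 2.51 and its highest value 48.4 FPKM. All 3 genes were detected together in 25 cells, 2 of them in 22 cells and 1 of them in 1 cell. Across cells Sox11 and Sox4 had rho = 0.30, Sox11 and Sox12 -0.03, and Sox4 and Sox12 -0.17. The first of these was 0.42 in cells numbered up to 48 and 0.15 in the others.

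Fox factors of broad expression formed the next group. Foxn3, a repressor linked to the cell cycle checkpoint, was detected in 43 cells, from 0 through a median of 23.1 to 173 FPKM, and its relative Foxn2 in 35 cells (median 3.23, highest 34.9 FPKM). Foxp1, a repressor needed in heart and lymphoid development, was found in 40 cells (median 6.78, highest 71.2 FPKM). These 3 genes had no value above 0 in at most 5 cells each. Foxk2, a regulator of metabolism and autophagy genes, was found in 29 cells (median 2.14, highest 22.3 FPKM). Foxj3 reached 1 FPKM in 20 cells (highest 36.7 FPKM) and Foxj2 in 12 (highest 12.5 FPKM). Foxk1 was detected in 7 cells and Foxp4 in 10, at up to 6.44 and 6.96 FPKM, and Foxk1 lay between 0 and the threshold in a further 32 cells. Paralogues of a subgroup were again only loosely related across cells: rho was 0.21 for Foxj3 and Foxj2, 0.18 for Foxn3 and Foxn2, 0.0007 for Foxp1 and Foxp4 and -0.08 for Foxk2 and Foxk1. For Foxp1 and Foxp4 it was 0.34 in the cells numbered up to 48 and -0.31 in the others.

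**Figure D2:**
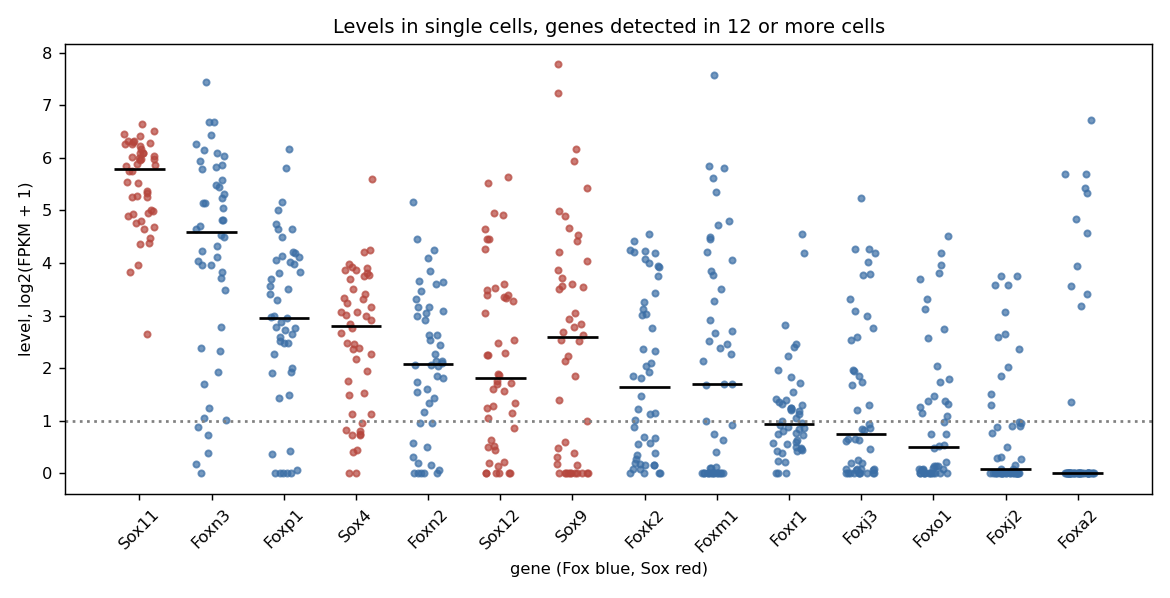
Level of each of the 14 members detected in at least 12 cells, as log2(FPKM + 1), with 1 point per cell (48 points per gene, Fox blue and Sox red) and a bar at the median; the dotted line is the threshold of 1 FPKM. Sox11 lies above the threshold in every cell, while Foxa2 has its median at 0 and 12 cells between 1.56 and 104 FPKM.

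The FoxO factors, which act in insulin signalling, stress responses and vessel formation, were detected in fewer cells. Foxo1 reached 1 FPKM in 19 cells (median 0.42, highest 21.8 FPKM). Foxo4 did so in 10 cells (highest 9.42 FPKM) and Foxo6 in 1. Foxo3 was listed at 0 in 45 cells and did not exceed 0.22 FPKM. Foxo1 and Foxo4 were both detected in 4 cells, 21.1% of the Foxo1 cells and 40% of the Foxo4 cells. Of 15 genes listed as FoxO regulators and targets, 13 were detected in at least 12 cells, among them Sod2 in 46, Cdkn1b in 37 and Akt1 in 30. Foxo1 had rho = 0.37 with Ccng2, a cyclin of arrested cells, and -0.31 with Akt1, and lay between those values for the other 13. Foxo4 reached 0.34 with the cell cycle inhibitor Cdkn1b and was below 0.3 for the other 14.

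Foxm1 (chr6:128362967-128376146, plus strand) was listed at 0 in 14 cells and reached the threshold in 26, and its median was 2.24 FPKM. Its highest value, 190 FPKM in the cell labelled C95, made up 31.2% of its sum over cells. The next highest was 56.7 FPKM. C95 also had the lowest Sox11 and the highest Foxj3 of the 48 cells, and with 4960 genes detected it was among the 7 cells under 5189. Of 11 genes listed as its targets in mitosis, 9 were detected in at least 12 cells. Foxm1 correlated at 0.3 or more with 6 of the 11, where 2.76% of all pairs of genes detected in 5 or more cells do: Birc5, an inhibitor of apoptosis that also acts at the centromere (rho = 0.53), Aurkb, its partner kinase (0.47), Ccnb1, cyclin B1 (0.39), Aurka (0.34), Cenpf (0.32) and Kif20a (0.31). Ccnb2, Plk1, Cenpa, Nek2 and Cdc25b lay between -0.07 and 0.27. All 26 Foxm1 cells held Birc5, which was itself detected in 47 cells, so detection alone sets no cells apart. Foxm1 tended to be higher in cells with more genes detected (rho = 0.27). With that number held constant Birc5 stayed at 0.53, and 3 of the 11 genes were at 0.3 or more, beside 2.39% of all gene pairs. In cells numbered up to 48 alone 2 of the 11 were, beside 7.93%, and in the others 4, beside 9.47%.

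Foxr1, a forkhead gene known mainly from germ cells and brain, was detected in 22 cells, yet rarely far above the threshold: its median was 0.91 and its upper quartile 1.59 FPKM. It reached 10 FPKM in 2 cells, C32 at 22.3 and C65 at 17.3 FPKM. Of the 20 members in 5 or more cells it was the most related to the number of genes detected (rho = 0.51), and was detected in 16 of the 25 cells numbered up to 48 and in 6 of the 23 above. Its relative Foxr2 was detected in 1 cell. Foxr1 had rho of at least 0.3 with 7 of the 10 genes of the pluripotency list, up to 0.40 with Utf1, beside 2.76% of all gene pairs. Once the number of genes detected was held constant 0 of them were (highest 0.27), beside 2.39% of all gene pairs. The part of detection in these relations was not tested further.

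Foxa2 (chr2:148042877-148046969, minus strand), the pioneer factor of node, notochord and endoderm, was listed at 0 in 36 cells and detected in the other 12 (25%, exact Clopper-Pearson 95% interval 13.6% to 39.6%). In those 12 cells it was 1.56, 8.09, 9.69, 10.8, 14.4, 22.8, 27.5, 38.97, 42.2, 50.45, 50.48 and 104 FPKM, so no cell had a value between 0 and 1. The gene split the cells into those with a clear level and those listed at 0. Of the 16 genes of the endoderm and anterior streak list, 10 were detected in at least 12 cells. Otx2, a homeobox factor of the anterior embryo, was found in 11 of the 12 Foxa2 cells (91.7%, against 36.1% of the other cells) and T (brachyury) in 10 (83.3%, against 44.4%). Eomes and Mixl1 were also in 10 each, but were broad elsewhere, in 69.4% and 55.6% of the other cells (rho = 0.21 and 0.14). The endoderm factors Gata4 and Gata6 and the receptor Cxcr4 had rho of -0.07, -0.10 and -0.05 with Foxa2, and Gata4 was in 58.3% of the Foxa2 cells, against 72.2% of the other cells. Cer1, which blocks Nodal and BMP outside the cell, was in 8, and Chrd, a BMP antagonist of the node, in 7, which was 77.8% of the 9 Chrd cells. Foxa2 had rho of 0.44 with Otx2, 0.41 with T, 0.40 with Chrd and Cer1 and 0.36 with Gsc, 5 of the 15 genes with any value, again beside the 2.76% of all pairs. With T it was 0.13 in cells numbered up to 48 and 0.61 in the others, and with Chrd 0.08 and 0.73. Held at a constant number of genes detected the count was also 5, beside 2.39% of all pairs. Some further genes of endoderm were nearly missing: Sox17 was detected in 1 cell, Ttr in 1, Foxa3 in 1, and Foxa1 and Afp in none.

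The gene most like Foxa2 among 6142 genes was Cdh1, E-cadherin, with rho = 0.72 (Pearson's r = 0.71, and 0.61 without the 2 cells farthest from the median of Foxa2). It was 0.68 in cells numbered up to 48 and 0.80 in the others, and between 0.70 and 0.75 when any single cell was left out. The next were Spint2, a membrane inhibitor of serine proteases (0.69), and Cldn6, a claudin of tight junctions (0.65). Below them came the epiblast genes Fgf5 (0.62) and Pou5f1 (0.56, in all 12 Foxa2 cells and 26 cells in all), and Nanog was at 0.41. These 3 were picked after their values had been seen. Cdh1 was detected in 10 of the 12 Foxa2 cells and in 18 cells in all. Foxa2 ran against Mesp1 (rho = -0.42), Pdgfra (-0.43) and Kdr (-0.36). Mesp1 was detected in 4 of the 12 Foxa2 cells and in 30 cells in all, Pdgfra in 4 and 31, and Kdr in 2 and 22. The rho with Mesp1 was -0.48 in cells numbered up to 48, -0.37 in the others, and between -0.47 and -0.39 without any single cell. Of the 20 members detected in 5 or more cells Foxa2 was the only one at -0.3 or less with Mesp1 (5%, where 2.28% of all genes were), and 0 were at 0.3 or more (2.53% of all genes).

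Foxb1, a gene of the neural tube and mammillary body, was detected in 5 cells, at 1.89, 5.91, 7.93, 39.6 and 54.8 FPKM, all of them numbered above 48. Of these cells 3 (C87, C93 and C95) were among the 7 with under 5189 genes, and without those 7 cells Foxb1 was in 4.88% of cells, against 10.4% of all 48. Of 10 genes of a neural list 0 had rho of at least 0.3 with Foxb1, the lowest being Pax6 (-0.24) and the highest Sox2 (0.23). With the number of genes detected held constant 1 did. Foxb1 shared 3 cells with Foxa2, 60% of the Foxb1 cells and 25% of the Foxa2 cells (rho = 0.39, and 0.31 without the cell labelled C79). That cell had the highest Foxa2, at 104 FPKM, the highest Foxb1 and the highest Foxd4, at 55.6 FPKM, together with Shh at 24.99, T at 396 and Cdh1 at 134 FPKM. It listed Mesp1 and Sox17 at 0. Shh, secreted by the notochord and floor plate, was detected in 3 cells in all, and Foxd4 in 3, one of which (C65, 4.41 FPKM) also held Foxa2 at 22.8 and Shh at 4.02 FPKM. In C65 these stood beside Mesp1 at 25.7, Etv2 at 29.98, Sox15 at 56.1 and Sox9 at 148 FPKM. It had 6744 genes detected, against a median of 5711 in cells numbered above 48. Whether C65 held more than 1 cell was not tested. The single Sox17 cell, C39, held 6.94 FPKM of Sox17 with Foxa2 at 1.56 and Cer1 at 1435 FPKM. Cer1 was higher in that cell than in any other.

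**Figure D3:**
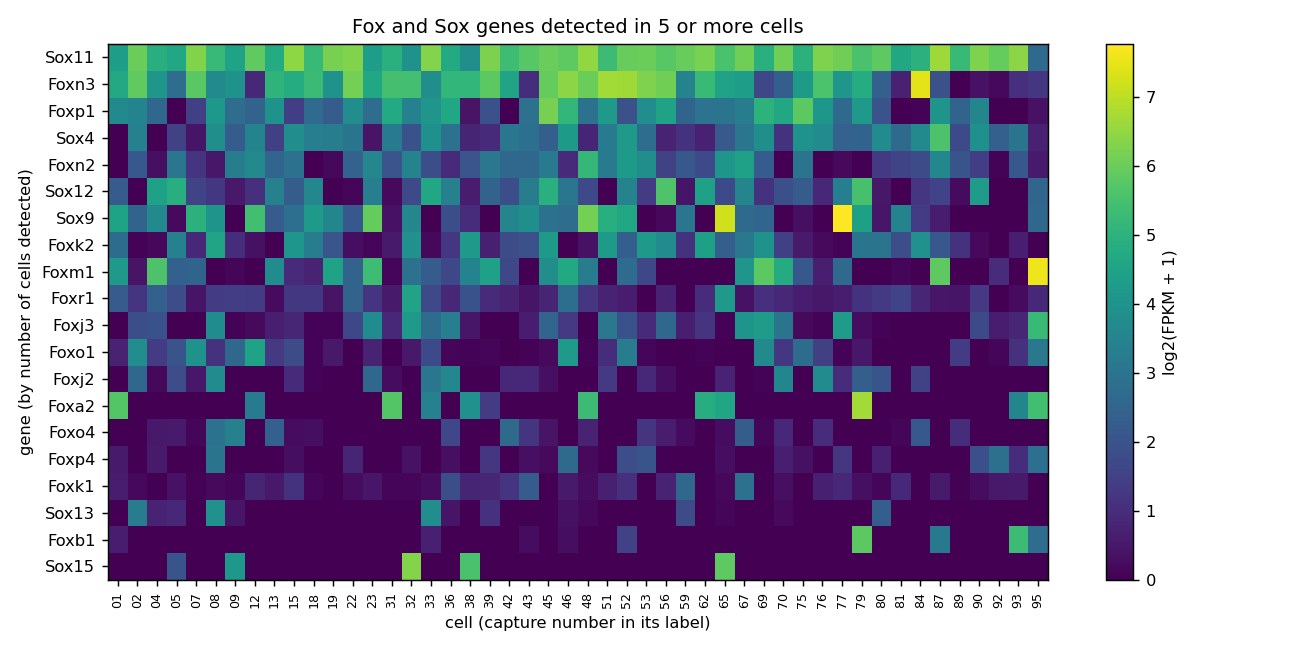
Levels of the 20 members detected in 5 or more cells, as log2(FPKM + 1) in colour, with genes in rows by number of cells and cells in columns by the number in their label. Sox11 has a value in every column (5.29 to 98.7 FPKM), while Foxa2 reaches 1 FPKM in 12 scattered columns, Foxb1 in 5 columns above number 48, and Sox15 in 5 columns.

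The SoxF genes, which act in endothelium and blood-forming cells, were all but missing although several of the early hemangiogenic regulators were detected. Etv2, the ETS factor that starts this programme, was in 26 cells, Kdr in 22, Gata2 in 15 and Lmo2 in 11. Sox7 was detected in 1 cell, Sox17 in 1 and Sox18 in none (0 of 48 cells, which allows a share of up to 6.25% of cells at the threshold by a limit of 3 counts). The Sox7 cell, C13, had Sox7 at 15.4 FPKM, Gata2 at 152, Lmo2 at 49.0, Kdr at 33.1, Etv2 at 12.1 and Tal1 at 2.47 FPKM. Its Gata2 value was the highest of the 48 cells. Cdh5 and Pecam1, genes of formed endothelium, were detected in no cell. C13 also held Sox5 at 5.17, Foxp2 at 3.88, Foxd2 at 3.15 and Sox6 at 1.32 FPKM. With Sox7 it thus held 5 of the 19 members detected in 1 to 4 cells, where no other cell held more than 2 of them. How many of all symbols detected as rarely were in C13 was not counted. The number of genes detected in that cell, 6219, was close to the median, and it also had Pax6, of eye and neural tube, at 19.1 FPKM. Sox13, a SoxD gene, was detected in 6 cells (highest 14.4 FPKM), and had rho = 0.42 with Fli1, an ETS factor, though they were detected together in 2 cells. Of the 15 hemangiogenic and endothelial genes with any value, 2 were at 0.3 or more with Sox13, the other being Egfl7 (0.30). Of all gene pairs 2.76% were. Etv2 was at -0.04, Kdr at -0.05, and the lowest at -0.09.

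Sox15, the only SoxG gene and expressed in mouse embryonic stem cells, was listed at 0 in 43 cells and stood at 3.10, 16.7, 45.6, 56.1 and 80.3 FPKM in the other 5. All 5 held the naive pluripotency factor Esrrb, which was detected in 6 cells, and all 5 held Utf1 (9 cells), Zfp42 (14), Sox2 (18), Dppa5a (21) and Pou5f1 (26). The overlap with Esrrb was 100% of the Sox15 cells and 83.3% of the Esrrb cells. Mesoderm genes were in these cells too, with Mesp1 in 4 of the 5, Hand1 in 4 and Kdr in 3, while Pdgfra was in 2 and T and Etv2 in 1 each. The rho of Sox15 with Mesp1 was 0.07 and with Hand1 0.009. Over 48 cells Sox15 had rho = 0.85 with Esrrb (r = 0.80, between 0.82 and 0.92 in rho without any single cell). It was 0.70 with Utf1 and 0.63 with Zfp42. Of the 10 pluripotency genes 6 were at 0.3 or more with Sox15, beside 2.76% of all gene pairs. With the number of genes detected held constant the count was also 6, beside 2.39%. The order among the 5 cells was not shared, since the cell with the lowest Sox15 had Utf1 at 518 FPKM, its highest value. Sox15 was related to the number of genes detected (rho = 0.44), and 4 of the 5 cells were numbered up to 48. The gene overlaps Mpdu1 on the opposite strand, and whether the authors' counting used strand is not given in the sources used here. Mpdu1 was detected in 20 cells and in 2 of the Sox15 cells. Foxr1 was detected in all 5 Sox15 cells, at 1.65 to 22.3 FPKM, and its 2 highest values lay in 2 of them (rho = 0.46, r = 0.67, and r = 0.28 without the 2 cells farthest from the median of Foxr1). Sox11 moved against Sox15 (rho = -0.40), with -0.58 in cells numbered up to 48 and -0.10 in the others.

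Sox9 (chr11:112782224-112787760, plus strand) was among the members with the widest spread. It was found in 30 cells and listed at 0 in 11, its median was 4.99 FPKM and its highest values were 218 FPKM in C77 and 148 FPKM in C65, and its coefficient of variation was 2.25, where genes of a mean within 2-fold had a median of 1.19. Targets of Sox9 in cartilage were rare, with 0 of 6 in at least 12 cells, Col2a1 in 7 cells and Acan, Comp, Matn1 and Col11a2 in none. Of 8 neural crest genes 1 reached 12 cells, Ets1 in 16, and Sox10 and Sox8, the other SoxE genes, were detected in no cell. Sox9 had rho = 0.47 with Gata4 and 0.36 with Msx2, transcription factors of lateral and cardiac mesoderm. These were 2 of the 9 genes of that list with any value, where 2.76% of all gene pairs reached 0.3. The rest of the list lay between -0.02 (Bmp4) and 0.27 (Pdgfra). With Gata4 rho was 0.445 in cells numbered up to 48 and 0.48 in the others, and with Msx2 0.58 and 0.16. Etv2 (0.33) was the only one of 15 genes of the hemangiogenic list at 0.3 or more. Others of that list ran the other way, down to -0.25 with Tal1. Of the 14 Msx2 cells 13 held Sox9, and Sox9 was likewise related to the number of genes detected (rho = 0.36). With the 10 paraxial genes Sox9 stayed between -0.10 and 0.27.

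Further members known from the neural plate, neural crest or organ fields were detected in 3 cells at most. Sox1 was detected in 2 cells (11.97 and 1.21 FPKM), Sox3 in 1, Sox14 in 1, and Sox21 in none. Foxd3, of crest and pluripotent cells, was in 2 cells, and Foxl2, a gene of the ovary, in 2 (28.5 and 20.03 FPKM), with a gene on its opposite strand, Foxl2os, in 4. Sox6 was in 3 cells, Foxp2 and Foxj1 in 2 each, and Sox5, Foxd1, Foxd2, Foxe1 and Foxf2 in 1 each. Foxf2, of visceral mesoderm, stood at 61.4 FPKM in its cell, C70, and Foxd1 at 20.8 FPKM in C87. In all, 20 cells held at least 1 of the 19 rarely detected members and 5 held 2 or more. Of the 19 members detected in no cell, 6 were listed at 0 throughout (Foxb2, Foxe3, Foxi1, Foxi2, Foxn4 and Foxp3, beside 28.4% of all symbols). Besides Foxa1 and Foxo3, those with a value above 0 in some cells included Foxi3, Foxl1, Foxn1, Foxq1, Foxs1, Sox8, Sox10, Sox18, Sox21 and Sox30.

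Of the 190 pairs among the 20 members detected in 5 or more cells, 7 (3.68%) had rho of at least 0.3, where 2.76% of 55836028 gene pairs did, and 3 (1.58%) had -0.3 or less, where 1.58% did. The 6 highest were Foxr1 with Sox15 (0.46), Foxp1 with Foxj3 (0.43), Foxa2 with Foxb1 (0.39), Foxr1 with Sox13 (0.37, but r = 0.09 by Pearson), Foxj2 with Sox13 (0.31) and Foxn2 with Sox15 (0.30). Foxj3 was in 20 cells, and 19 of them held Foxp1, which was itself in 83.3% of all cells. The 4 lowest were Sox11 with Sox15, Foxa2 with Foxo4 (-0.38), Foxo4 with Foxb1 (-0.35) and Sox11 with Foxr1 (-0.30). Foxo4, itself in 20.8% of all cells, was detected in none of the 12 Foxa2 cells and in none of the 5 Foxb1 cells. Counted in cells numbered up to 48 alone, 14 pairs (7.37%) were at 0.3 or more beside 7.93% of all gene pairs, and in the others 20 (10.5%) beside 9.47%. With the number of genes detected held constant 3 pairs (1.58%) were, beside 2.39%. Leaving out C36 gave 4 pairs and leaving out any other cell 5 to 10.

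**Figure D4:**
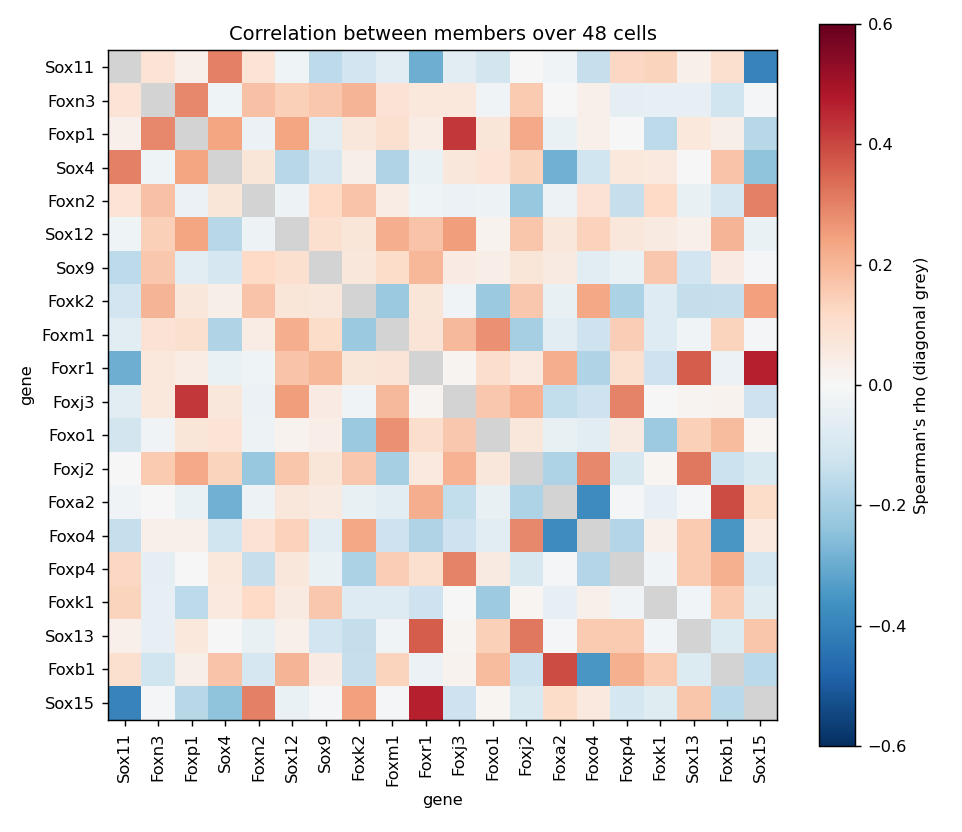
Spearman's rho over 48 cells for each pair of the 20 members detected in 5 or more cells (red positive, blue negative, diagonal grey). Most of the 190 pairs are pale; Foxr1 with Sox15 (0.46) and Foxp1 with Foxj3 (0.43) are the strongest positive pairs and Sox11 with Sox15 (-0.40) is the strongest negative pair.

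The closest genes were then sought among all genes, where a higher top value is found than among 20 members because more genes are searched. For a gene of the 6142 with a mean of at least 5 FPKM and detection in at least 12 cells, the highest rho with any other had a median of 0.54 and quartiles of 0.51 and 0.58. The value for Foxa2 (0.72) was reached by 2.003% of these genes, itself included. Foxm1 was most like Fzr1, an activator of the anaphase-promoting complex (0.65), followed by Fnbp4 (0.55) and the mitotic kinesin Kif2c (0.53). In cells numbered up to 48 these were 0.81, 0.36 and 0.23, and in the others 0.53, 0.64 and 0.58. Foxp1 was most like Id2, an inhibitor of helix-loop-helix factors and target of BMP signals (0.65; r = 0.64, with 0.76 and 0.53 in rho for cells numbered up to 48 and above), followed by the growth factor Mdk (0.60) and Arg1 (0.53). All 14 cells with Arg1, arginase, held Foxp1, which was itself in 83.3% of all cells. Foxn3 came closest to Ing3, a subunit of a histone acetyltransferase (0.60), then Senp6 (0.53) and Commd5 (0.52). With Ing3 it was 0.26 in cells numbered up to 48 and 0.81 in the others. Foxn3 was related to the number of genes detected (rho = 0.40), and with that number held constant Ing3 was at 0.58. For Sox9 the first were Fbxo38 (0.60), Tusc2 (0.55) and Pigm (0.51). In cells numbered up to 48 these were 0.43, 0.53 and 0.09, and in the others 0.59, 0.59 and 0.70. For Sox11 they were Polr3k (0.55), Ube2e3 (0.53) and Tmem55a (0.44). The other 4 members with a mean and breadth that allowed the search had a top rho below that median: Sox12 with Akr1e1 (0.52), Foxk2 with Prdx5 (0.52), Foxn2 with Mcm3 (0.52) and Sox4 with Gpr125 (0.50).

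Against 10 marker genes of mesoderm, epithelium and pluripotency, 13 of 200 relations (6.50%) were at 0.3 or more, where 3.87% of those of all genes were, and 8 (4.00%) at -0.3 or less, where 2.48% were. Foxa2 with Cdh1, Nanog and T was among the 13, and Foxa2 with Mesp1, Pdgfra, Kdr and Vim (-0.33) among the 8. Besides those of Foxa2, Sox4 ran against Cdh1 (rho = -0.44; r = -0.49, with -0.48 and -0.32 in rho for cells numbered up to 48 and above) and with Pdgfra (0.37). Sox4 was detected in 10 of the 18 Cdh1 cells and 26 of the 31 Pdgfra cells. Foxb1 ran against Hand1 (-0.37) and Kdr (-0.32). Foxm1 ran against Hand1, a factor of lateral and extraembryonic mesoderm, at -0.36, which was -0.68 in cells numbered up to 48 and -0.07 in the others. These markers were chosen after the members' values had been seen, so the shares cannot show an excess for the 2 families as a whole.

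**Figure D5:**
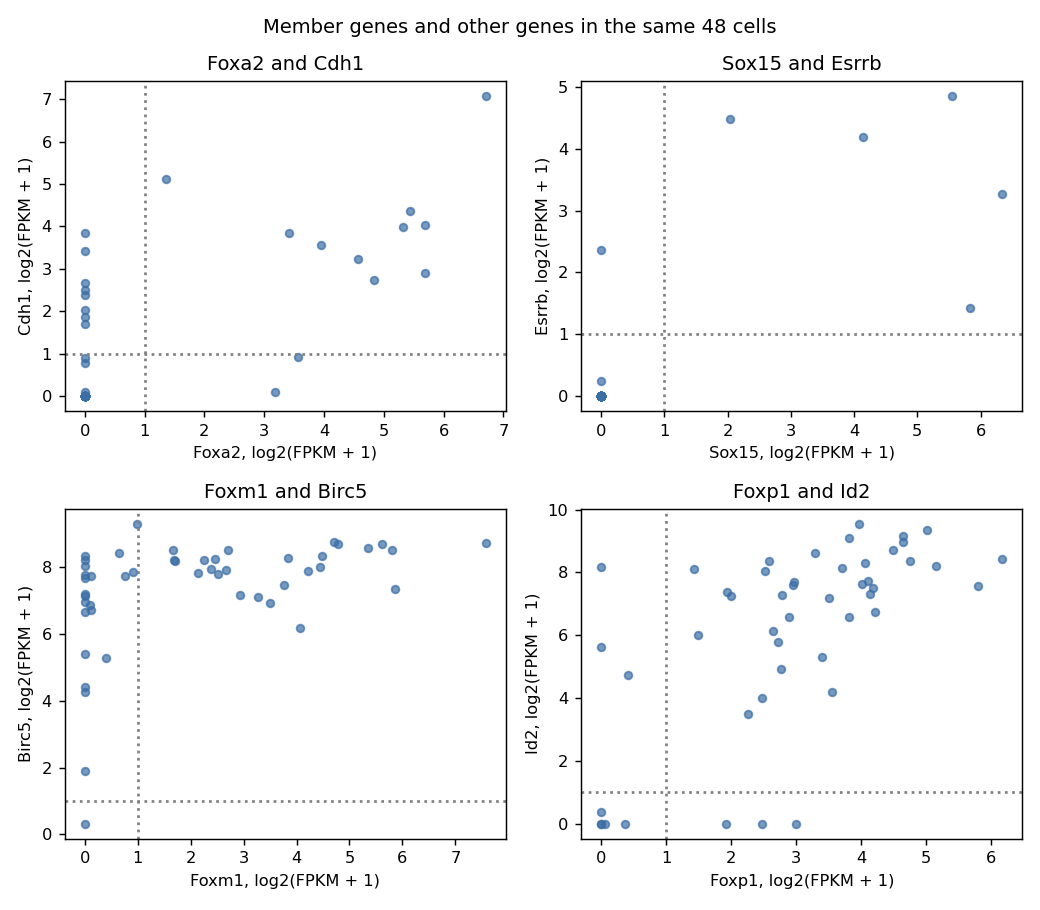
Levels of 4 members against the gene named on the vertical axis, each as log2(FPKM + 1), with 1 point per cell (48 cells) and dotted lines at 1 FPKM. Cdh1 is above the line in 10 of the 12 Foxa2 cells, Esrrb in all 5 Sox15 cells, Birc5 in all 26 Foxm1 cells and Id2 in 37 of the 40 Foxp1 cells.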

How the data were processed

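Single-cell RNA-seq was measured in 48 cells of 1 group. The table deposited by the authors names no unit and is treated as FPKM, since the list of tools in the submitters' processing notes has Cufflinks 2.2.1.0, and its values are not whole and sum to 480821 to 12864440 per cell. Other entries there, with no role given, are build mm10, TopHat 0.7 and CASAVA 1.8.2. Annotation, filters and strand setting: not given in the sources used here. Columns were matched to cells by title. Rows of 240 repeated symbols were summed (0 members were among them), and coordinates come from GENCODE M21, which held all 58 members. The members, lists and thresholds were chosen with earlier results of these data known. Named genes were every member detected in 5 or more cells, the 6 highest and 4 lowest pairs, pairs within a subgroup, and the 3 genes most like each of 6 members. Values of single cells, the marker genes, the promoters and motifs and the list set beside each member were picked after the data had been seen. Short RNA rows were left out of comparisons with other genes. Spearman's rho used all 48 cells and carries no p-value. Shares carry exact 95% intervals, and 0 cells carries a limit of 3 counts. No cell was removed and doublets were not called. Depth is unknown. Python 3.11.15, pandas 2.3.3, numpy 2.4.6, scipy 1.17.1 and matplotlib 3.10.9 were used. The code that ranks like genes was run on simulated data, with genes shuffled over cells and close partners planted. That run checks the code and cannot tell how reliable ranks are at the weaker values found here. The alternatives were the detection threshold, the scaling, the cells used, Pearson's r and the number of genes detected as covariate; leaving out each cell in turn was added later. Some genes are not reported here.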

Additional observations from a re-analysis of the deposited data

How the results depend on the processing

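The 14 members detected in at least 12 cells became 6 at 10 FPKM, and the 20 in 5 or more cells became 12. The median of 10 members per cell became 15 at 0.1 FPKM and 5 at 10 FPKM. The 6 members listed at 0 throughout became 14 among cells numbered up to 48 and also 14 among the others, by construction, since fewer cells were read. For subsets of cells the same shares of cells were required. Under the other settings run (rescaling without short RNAs, leaving out the 7 cells under 5189 genes, which is 3 unscaled median absolute deviations below the median, and each range of label numbers) the counts in 12 and in 5 or more cells stayed within 1.5 times.

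The 7 member pairs at 0.3 or more became 14 (7.37%) in cells numbered up to 48 and 20 (10.5%) above, where 7.93% and 9.47% of all gene pairs were. They became 3 (1.58%, all genes 2.39%) with the number of genes detected held constant, and 2 of 91 pairs among members in 12 or more cells. Leaving out each cell in turn, chosen after seeing the data, gave 4 to 10. Of 120 shares of cells for the 20 members, 34 left the interval of the first value, 14 at 0.1 FPKM, 16 at 10 FPKM and 4 in the ranges of label numbers. The share for Foxr1, 45.8%, became 93.75% at 0.1 FPKM and 4.17% at 10 FPKM. Of 115 other values of rho for 18 named pairs, 110 lay inside the interval of the first value, the 5 others being Foxr1 with Sox15 and with Sox13 by Pearson's r, Foxp1 with Foxp4 in both ranges and Sox11 with Sox15 above 48, and 0 pairs at 0.3 or beyond changed sign. No paired analysis was possible because there is 1 group. Depth is unknown, so a gene listed at 0 may be expressed.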

Other observations

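Foxl1, a gene of gut mesenchyme, had a value above 0 in 15 cells and none above 0.41 FPKM, and Sox7 had such values between 0 and 1 FPKM in 11 cells besides the single cell where it was detected. Foxr1 did so in 23 cells and Foxk1 in 32. Foxa2, Sox15 and Foxd4 had 0 cells in that range, so these genes were either listed at 0 or past the threshold. Foxb1 overlaps B230323A14Rik on the opposite strand, which was detected in 2 cells and in 0 of the 5 Foxb1 cells.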
